A study of Mus musculus with 6 samples.

Results

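A group of 8 genes outside the peptidylarginine deiminase cluster was followed across 6 RNA sequencing libraries of mouse corneal epithelium, the stratified outermost layer of the cornea. They are Npy, Samd11, 5830444B04Rik, Gabrd, Zbtb8b, Scand1, Pdzrn4 and Mobp, 8 of the 25006 genes in the count table, and all 8 were found by symbol. They were chosen by their counts in the genotype contrast of these same libraries, so the genotype differences given for them are a description and carry no test. Of the 8, 7 had enough counts to be tested with all other genes, and Gabrd did not. Total RNA came from 3 libraries labelled EphA2 null, a genotype that lacks the ephrin receptor EphA2, and from 3 wild type libraries. The sources used here give no strain, age, sex or treatment, and do not say whether the null allele was present in all cells. They also do not say whether each library was a separate animal, so p-values measure only the spread between these 6 samples and part of it may be technical.

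Totals ran from 20897761 to 27586942 counts in the null-labelled libraries and from 15308013 to 20138496 counts in the wild type ones. The gene for the receptor did not separate the groups: Epha2 averaged 505 ± 195 CPM in the null-labelled libraries and 371 ± 167 CPM in the wild type ones (SD, n = 3 each). CPM stands for TMM-normalised read counts scaled to library size, and below a CPM value with ± is a mean with its SD over 3 libraries and a log2 fold change with ± carries its SE. The log2 fold change of Epha2 was 0.44 ± 0.39, so every direction here rests on the label. Corneal epithelial markers were high throughout, with Krt12, Krt5, Pax6 and 7 others summing to between 64400 and 87800 CPM in the null-labelled and between 65300 and 79500 CPM in the wild type libraries. The summed markers of stroma reached at most 0.394 CPM in the null-labelled and 1.62 CPM in the wild type libraries, with Kera and Lum at 0 counts in every library. Those of lens reached at most 0.590 CPM in the null-labelled and 0.743 CPM in the wild type libraries. Melanocyte markers summed to between 8.63 and 11.3 CPM in the null-labelled and between 7.36 and 10.4 CPM in the wild type libraries, with Tyr at 0. Xist had no more than 9 counts in any library, and the Y-linked gene Ddx3y had at least 1567, so neither set the genotypes apart. The sample titles carry numbers in a lower range (null-labelled 1, wild type 1 and 2) and a higher range (null-labelled 2 and 3, wild type 3), which is used below as a second comparison. Wild type 1 and 2 share a title number, as do null-labelled 2 and 3, and each number holds a single genotype. Libraries that share a number differ in the letter that follows it in the title, and they may not be independent. With genotype in the model, Epha2 was higher in the higher range (log2 fold change 1.07 ± 0.11, edgeR adjusted p = 0.00174). That range holds more null-labelled than wild type libraries.

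The 8 genes have little in common by function. Npy encodes the precursor of neuropeptide Y, a peptide transmitter of sympathetic and central neurons that acts through G protein-coupled Y receptors. Gabrd encodes the delta subunit of the GABA-A receptor, a chloride channel opened by the inhibitory transmitter GABA, and Mobp encodes a basic protein of compact myelin in the central nervous system. Samd11 encodes a SAM domain protein that joins Polycomb repressor complexes in mouse photoreceptors, Zbtb8b a BTB domain zinc finger protein, Scand1 a SCAN domain protein without zinc fingers, and Pdzrn4 a protein with PDZ and RING finger domains. 5830444B04Rik is annotated as a processed transcript that encodes no protein.

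In all 8 genes the 3 null-labelled libraries lay on 1 side of the 3 wild type libraries, higher for Npy and Samd11 and lower for the other 6. Among the 12847 tested genes, 3.73% were separated in this way, 1.71% with the null-labelled libraries higher and 2.02% with them lower. Because this separation is what the genes were chosen for, nothing is read from the count. For the same reason it is only recorded that DESeq2 called 4 of the 7 tested ones between genotypes, where it called 0.0467% of all genes, and edgeR called 0, where it called 0.00778%. Of those 4, Npy and Samd11 were higher (0.0311% of genes) and 5830444B04Rik and Zbtb8b lower (0.0156%). With title number range, explained above, as a term in the model, DESeq2 called Npy, 5830444B04Rik, Zbtb8b and Scand1 and no longer Samd11 (0.14% of genes called), and edgeR again called 0 (0.00778%). Levels were low except for Zbtb8b, whose mean CPM exceeded that of 72.4% of tested genes, while the next, Scand1, exceeded 21.8%. Per kilobase of exon, Zbtb8b had 6.52 CPM in the null-labelled and 11.5 CPM in the wild type libraries. Npy, per kilobase, had 6.46 CPM in the null-labelled and 1.25 CPM in the wild type libraries, so that in the null-labelled libraries its level was close to that of Zbtb8b. Scand1 had 3.63 CPM per kilobase in the null-labelled and 9.83 CPM in the wild type libraries. At the other end, the level per kilobase of Gabrd was 0 in the null-labelled libraries and 0.146 CPM in wild type.

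**Figure D1:**
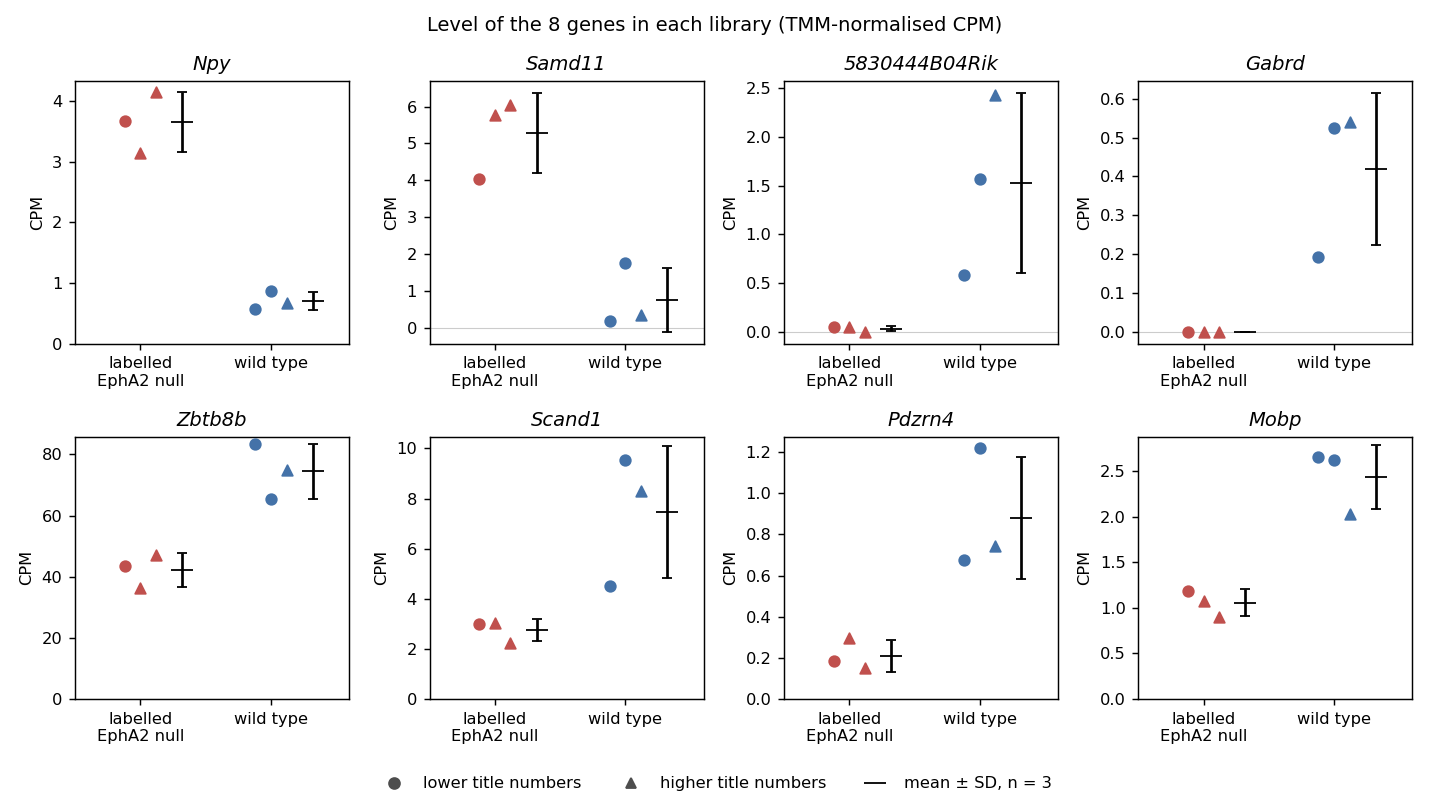
Level of each of the 8 genes in every library, in TMM-normalised CPM on linear axes that differ between panels; circles are libraries with lower and triangles with higher title numbers, and the bars give the mean ± SD of 3 libraries. In each panel the null-labelled and wild type points do not overlap, with Npy and Samd11 higher and the other 6 lower in the null-labelled libraries.

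Npy and Samd11 were the members with more RNA in the null-labelled libraries. The stretches of DNA before their RefSeq start sites are shown because these are the 2 that were high together. They are from RefSeq on GRCm38.p6, 5′ to 3′ on the strand of the gene, without annotated exon bases, and capitals mark matches to the motifs named below them. Windows were on hand for 6 of the 8 genes.
Npy, chr6:49822460-49822709, plus strand: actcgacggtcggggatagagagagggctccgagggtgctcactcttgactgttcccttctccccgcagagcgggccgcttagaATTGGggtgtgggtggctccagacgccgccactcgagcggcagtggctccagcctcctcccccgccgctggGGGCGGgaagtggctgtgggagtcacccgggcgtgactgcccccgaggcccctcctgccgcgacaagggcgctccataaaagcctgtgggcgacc
Samd11, chr4:156255353-156255567, minus strand: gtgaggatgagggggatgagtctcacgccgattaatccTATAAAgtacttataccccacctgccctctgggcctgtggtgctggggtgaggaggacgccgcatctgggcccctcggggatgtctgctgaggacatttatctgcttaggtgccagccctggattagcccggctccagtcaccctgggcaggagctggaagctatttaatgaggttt

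The motifs searched on both strands were TATAAA (the TATA box), CCAAT (the box bound by NF-Y), GGGCGG (bound by Sp1), TGACTCA (bound by AP-1) and CACGTG (an E-box), which do not overlap in these stretches. Upstream of Npy there was 1 CCAAT (read as ATTGG) at position -166 from the start and 1 GGGCGG at -95, motifs that 33.8% and 32.7% of all 32851 promoter windows of the same length held. Before the RefSeq start of Samd11 there was 1 TATAAA at -187, found in 10.9% of windows. That start lies inside the gene span given below for Samd11, and so does the whole stretch printed above. The Npy stretch held 21 CG dinucleotides against a median of 6 over all windows, and the Samd11 stretch 6 against 5. The 2 stretches therefore shared none of these matches.

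Npy (ENSMUSG00000029819, chromosome 6, 49822710 to 49829507 in GRCm38) had 80, 64 and 111 counts in null-labelled libraries 1, 2 and 3, against 12, 15 and 10 counts in wild type 1, 2 and 3. As levels these were 3.67, 3.15 and 4.15 CPM in the null-labelled libraries, against 0.579, 0.874 and 0.675 CPM in wild type. The lowest null-labelled library was thus well above the highest wild type one, and the spread within each group was small. The mean was 3.65 ± 0.498 CPM in the null-labelled and 0.709 ± 0.150 CPM in the wild type libraries, 5.14-fold higher. The log2 fold change was 2.36 ± 0.29. Within wild type the coefficient of variation of 21.2% did not exceed the 28.5% that counting error alone gives at these counts, and within the null-labelled group it was 13.6%, with 10.8% from counting error.

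The other genes of the neuropeptide Y system were silent or were not called. Of 12 (peptides, receptors and processing enzymes), 6 had 0 counts in every library, among them the genes for peptide YY and for the Y1 and Y5 receptors, and 4 could be tested. Neither edgeR nor DESeq2 called any of the 4 (smallest edgeR adjusted p = 0.9996), and at an unadjusted p under 0.05 there were 0. Over all tested genes 1.18% were under that unadjusted p, so 0 in a list this short is near the background, here and in the lists below. Their median log2 fold change was -0.03, against 0.01 over all tested genes. Cpe, a carboxypeptidase that trims neuropeptide precursors, was the most abundant at 295 ± 23.4 CPM in the null-labelled and 333 ± 53.8 CPM in the wild type libraries. Pam, the enzyme that amidates such peptides, had a log2 fold change of 0.19 ± 0.13. The Y4 receptor gene Npy4r, the only receptor gene of the list with enough counts to test, had 13, 6 and 18 counts in null-labelled libraries 1, 2 and 3 and 6, 17 and 11 counts in wild type. The prohormone convertase gene Pcsk1 had at most 1 count per library.

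Nerve and Schwann cell markers stood beside these values as follows. The 16 genes summed to between 194 and 398 CPM in the null-labelled and between 181 and 382 CPM in the wild type libraries. Nearly all of it came from Erbb3 and Ngfr, so the sum says little about the other genes of the list. Both were higher at higher title numbers, with log2 fold changes of 0.94 ± 0.14 and 0.78 ± 0.15 (edgeR adjusted p = 0.00238 and 0.00474). Nefl, Nefm and Uchl1, which mark axons, had 0 counts in every library, and the Schwann cell gene Sox10 at most 1. Of the genes that mark sympathetic neurons, Th had 0 counts in the null-labelled libraries and 2, 0 and 1 counts in wild type 1, 2 and 3, and Dbh had 0, 3 and 0 counts in null-labelled libraries 1, 2 and 3 and 0 in wild type. S100b, a glial marker, had 2, 3 and 3 counts in null-labelled libraries 1, 2 and 3, against 1, 0 and 0 in wild type 1, 2 and 3. Prph, a peripheral neuron filament gene, had 3, 23 and 4 counts in the null-labelled libraries and 5, 1 and 5 in wild type. Elavl4 and Snap25, of the same list, went the other way. Elavl4 had 1, 0 and 1 counts in the null-labelled libraries and 5, 2 and 0 in wild type. Snap25 had 1, 0 and 0 counts in the null-labelled libraries and 0, 3 and 0 in wild type. Most of these counts are near the floor. The part of these cells in the Npy difference was not tested. In bulk tissue such as this, fewer cells of a type and less RNA per cell cannot be told apart.

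Samd11 (ENSMUSG00000096351, chromosome 4, 156246966 to 156255657) had 88, 117 and 162 counts in null-labelled libraries 1, 2 and 3, against 4, 30 and 5 counts in wild type 1, 2 and 3. Levels were 4.04, 5.76 and 6.05 CPM in the null-labelled libraries, against 0.193, 1.75 and 0.338 CPM in wild type. All 3 null-labelled libraries were above all wild type ones, but wild type 2 stood apart from the other wild type libraries. Its count had a 95% Poisson interval of 20.2 to 42.8, while that of wild type 1, which shares its title number, was 1.09 to 10.2. The mean was 5.28 ± 1.09 CPM in the null-labelled and 0.759 ± 0.859 CPM in the wild type libraries, and the wild type coefficient of variation was 113%, against 27.7% from counting error alone. The log2 fold change was 2.80 ± 0.68, or 6.97-fold, and without wild type 2 it was 4.33.

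Samd11 shares bases with 2 genes on the opposite strand, and counts could go to either where the counting took no account of strand. Of its 3588 exon bases, 16.7% overlap Noc2l, whose product represses histone acetylation, and 11.9% overlap the antisense gene Gm47252, not analysed here. Noc2l had 42.1 ± 9.86 CPM in the null-labelled and 43.6 ± 3.94 CPM in the wild type libraries, a log2 fold change of -0.05 ± 0.20 (edgeR adjusted p = 0.9996). The Noc2l levels of the 2 groups overlapped.

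Among Samd7 and 23 other genes of Polycomb repressive complex 1 and related SAM domain proteins, 22 could be tested and 0 were called between the genotypes by edgeR or DESeq2, with 0 at an unadjusted p under 0.05. Their median log2 fold change was 0.03. Pcgf6, a RING finger subunit, had the smallest p of the list with a log2 fold change of -0.28 ± 0.16 (edgeR adjusted p = 0.9996). Markers of retina, where Samd11 is known to act, summed to between 4.93 and 10.0 CPM in the null-labelled and between 3.03 and 7.77 CPM in the wild type libraries. The photoreceptor factor gene Crx had 0 counts in the null-labelled libraries and 5, 0 and 1 in wild type, and Otx2 had 0 counts in all 6. Gnat1, rod transducin, had 26, 119 and 57 counts in null-labelled libraries 1, 2 and 3, against 32, 7 and 46 in wild type 1, 2 and 3, a log2 fold change of 0.87 ± 0.77 (edgeR adjusted p = 0.9996). The part of retinal RNA in the Samd11 difference was not tested.

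Gabrd and 5830444B04Rik lie next to each other on chromosome 4, on the same strand and 650 bases apart, and both were nearly absent from the null-labelled libraries. 5830444B04Rik (ENSMUSG00000084803, 155398763 to 155421704) had 1, 1 and 0 counts in null-labelled libraries 1, 2 and 3, against 12, 27 and 36 counts in wild type 1, 2 and 3. Every wild type library held at least 12 counts while no null-labelled library held more than 1. Adjusted for depth, the ratio of summed counts was 0.0204, with a 95% counting interval of 0.00243 to 0.0763. The wild type levels were themselves uneven, at 0.579, 1.57 and 2.43 CPM, a coefficient of variation of 60.7%, above what counting error gives. The fitted log2 fold change of -5.41 ± 0.87 was -3.64 with a prior count of 2, so its size depends on that setting.

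Gabrd (ENSMUSG00000029054, 155384980 to 155398112) had 0 counts in all 3 null-labelled libraries, against 4, 9 and 8 counts in wild type 1, 2 and 3. The wild type levels were 0.193, 0.524 and 0.540 CPM. With up to 3 counts allowed over the null-labelled group, the limit that a count of 0 sets, and the wild type counts taken as measured, Gabrd was at least 9.15-fold lower there. The 95% counting interval of the ratio, which also covers the error of the wild type counts, reached up to 0.147. This bound was 5.60 without null-labelled library 3 and 12.2 without wild type 1. Such intervals and limits cover counting error only.

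Another gene of the locus, chosen after its values were seen, was also absent from the null-labelled libraries. Cfap74, named for cilia and flagella, lies on the opposite strand, starts within 5830444B04Rik and shares 453 exon bases with it. It had 0 counts in all 3 null-labelled libraries, against 2, 5 and 10 counts in wild type 1, 2 and 3, at least 7.41-fold lower on the same terms, with a 95% interval of the ratio that reached up to 0.185. Over the 3 genes together, which span 81.8 kb, there were 1, 1 and 0 counts in null-labelled libraries 1, 2 and 3, against 18, 41 and 54 in wild type. Without a stated strand setting, reads of Cfap74 and 5830444B04Rik cannot be told apart where their exons overlap, but Gabrd overlaps neither gene.

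The genes next to that stretch were counted in every library of both groups. Prkcz, an atypical protein kinase C gene 23.6 kb from Gabrd, had 276, 268 and 402 counts in null-labelled libraries 1, 2 and 3, against 263, 225 and 261 in wild type, a log2 fold change of -0.09 ± 0.18. Tmem52, the next gene after Cfap74, had 8, 15 and 5 counts in the null-labelled libraries and 9, 6 and 4 in wild type. Adjusted for depth, the ratio of its summed counts was 1.13, with a 95% counting interval of 0.608 to 2.14. Gnb1, a G protein beta subunit gene further on, had a log2 fold change of -0.03 ± 0.18. In both flanking genes that were tested the adjusted p was 0.9996 in edgeR.

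**Figure D2:**
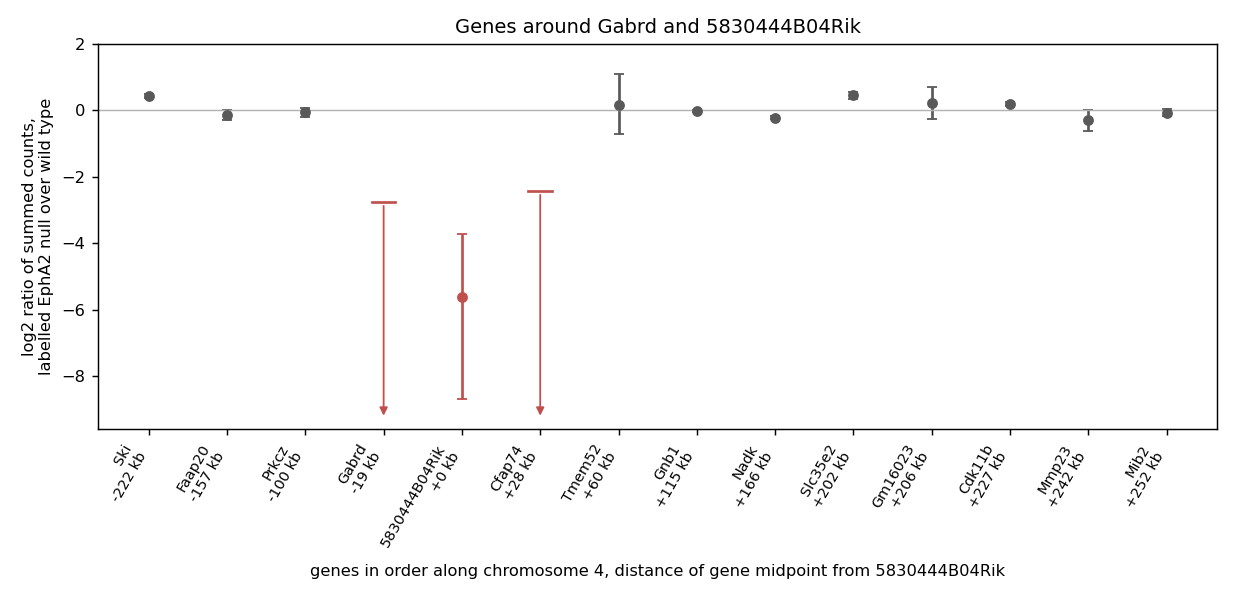
Depth-adjusted log2 ratio of summed counts, null-labelled over wild type, for genes in order along chromosome 4 within 250 kb of 5830444B04Rik; points and bars are ratios with 95% counting intervals, and arrows start at the upper limit for genes at 0 counts in the null-labelled libraries. Gabrd, 5830444B04Rik and Cfap74 (red) lie far below 0, while Prkcz, Tmem52 and Gnb1 on either side lie close to it.

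The rest of the GABA system gave Gabrd little company in this tissue. Of 26 other genes for GABA receptors, synthesis and transport, 12 had 0 counts in every library, among them the GABA-synthesising enzymes Gad1 and Gad2 and the gamma subunits, and 5 could be tested. Neither tool called any of the 5 (edgeR and DESeq2), 0 were under an unadjusted p of 0.05, and their median log2 fold change was -0.06. Gphn, the scaffold protein gephyrin and the most abundant, had a log2 fold change of -0.06 ± 0.17. Gabbr1, a subunit of the metabotropic GABA-B receptor, had 193, 168 and 265 counts in null-labelled libraries 1, 2 and 3, against 179, 236 and 252 in wild type 1, 2 and 3, a log2 fold change of -0.54 ± 0.26 (edgeR adjusted p = 0.9996).

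Zbtb8b and Scand1 were the best counted of the genes with less RNA in the null-labelled libraries. Both encode members of transcription factor families, and the stretches before their starts are given on the same terms as above.
Zbtb8b, chr4:129440854-129441068, minus strand: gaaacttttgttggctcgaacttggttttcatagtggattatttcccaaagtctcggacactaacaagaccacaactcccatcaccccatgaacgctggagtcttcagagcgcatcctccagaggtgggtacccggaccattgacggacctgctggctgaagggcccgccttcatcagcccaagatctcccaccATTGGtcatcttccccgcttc
Scand1, chr2:156312800-156312954, minus strand: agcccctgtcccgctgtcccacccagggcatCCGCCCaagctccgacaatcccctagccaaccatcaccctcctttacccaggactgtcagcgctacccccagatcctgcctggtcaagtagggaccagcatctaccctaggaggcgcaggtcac

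Before the RefSeq start of Zbtb8b there was 1 CCAAT (read as ATTGG) at -56, a motif in 30.4% of windows over the same stretch. That start lies inside the gene span given below for Zbtb8b, while the stretch lies outside it. Upstream of Scand1 there was 1 GGGCGG (read as CCGCCC) at -219, found in 17.4%. TGACTCA and CACGTG had no match in the stretches of Npy, Samd11, Zbtb8b or Scand1.

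Zbtb8b (ENSMUSG00000048485, chromosome 4, 129425765 to 129440853) had 951, 735 and 1265 counts in null-labelled libraries 1, 2 and 3, against 1726, 1123 and 1109 counts in wild type 1, 2 and 3. Adjusted for depth, these were 43.6, 36.2 and 47.2 CPM in the null-labelled libraries, against 83.3, 65.4 and 74.9 CPM in wild type. The groups were separate, although in raw counts null-labelled library 3, the deepest, exceeded 2 of the wild type libraries. The mean was 42.3 ± 5.65 CPM in the null-labelled and 74.5 ± 8.93 CPM in the wild type libraries, a log2 fold change of -0.82 ± 0.16 or 1.76-fold lower. With over 700 counts in each library, counting error was small: it gives coefficients of variation of 3.19% in the null-labelled and 2.75% in the wild type libraries, and the observed coefficients were larger (13.3% in the null-labelled libraries).

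Its relative Zbtb8a, the nearest tested gene on 1 side at 47.6 kb, had 20.9 ± 5.16 CPM in the null-labelled and 19.8 ± 3.40 CPM in the wild type libraries, a log2 fold change of 0.07 ± 0.23 (edgeR adjusted p = 0.9996). On the other side, at 20.7 kb, Bsdc1, named for its BSD domain, had a log2 fold change of 0.05 ± 0.18. The groups of Zbtb8a and Bsdc1 overlapped, while those of Zbtb8b did not. A list of 44 other genes was drawn up for the BTB zinc finger family. It includes Zbtb8os, which is named for lying on the opposite strand and is not itself a BTB zinc finger gene (log2 fold change -0.04 ± 0.21). Of the 44, 40 could be tested, and edgeR and DESeq2 called 0 of them, with 0 at an unadjusted p under 0.05. Their median log2 fold change was -0.03, with 16 above 0 and 24 below. Zbtb7a, a repressor and the most abundant, had 187 ± 86.2 CPM in the null-labelled and 187 ± 86.3 CPM in the wild type libraries. Zbtb17, the MYC partner also called Miz1, had a log2 fold change of -0.38 ± 0.22.

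Scand1 (ENSMUSG00000046229, chromosome 2, 156311847 to 156312704) had 65, 62 and 60 counts in null-labelled libraries 1, 2 and 3, against 94, 164 and 123 counts in wild type 1, 2 and 3. As levels, the null-labelled libraries had 2.98, 3.05 and 2.24 CPM and the wild type ones 4.53, 9.55 and 8.31 CPM. Wild type 1 lay between the null-labelled libraries and the other wild type ones, and the groups did not overlap. The mean was 2.76 ± 0.449 CPM in the null-labelled and 7.46 ± 2.61 CPM in the wild type libraries, and the log2 fold change -1.43 ± 0.32. The observed coefficient of variation within wild type was 35.0%, against 8.87% from counting error alone.

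This small gene, with 759 exon bases, shares 40.4% of them with the first part of Cnbd2 on the opposite strand. Cnbd2, named for a cyclic nucleotide binding domain, had 1.69 ± 0.110 CPM in the null-labelled and 1.53 ± 0.594 CPM in the wild type libraries, a log2 fold change of 0.15 ± 0.33. On the other side Phf20, a gene for a chromatin reader protein, had a log2 fold change of -0.01 ± 0.13, and the adjusted p of both was 0.9996 in edgeR. Of 22 other SCAN domain genes, 20 could be tested and 0 were called by edgeR or DESeq2, with 0 at an unadjusted p under 0.05. The median log2 fold change was -0.12, with 5 above 0 and 15 below. Zscan26, the most abundant, had a log2 fold change of -0.22 ± 0.19, and Peg3, an imprinted zinc finger gene, -0.33 ± 0.20.

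Pdzrn4 and Mobp were at low levels and had fewer counts in the null-labelled libraries. Pdzrn4 (ENSMUSG00000036218, chromosome 15, 92396881 to 92771819) had 4, 6 and 4 counts in null-labelled libraries 1, 2 and 3, against 14, 21 and 11 counts in wild type 1, 2 and 3. No null-labelled library reached the lowest wild type count, and the ratio of summed counts, adjusted for depth, was 0.233 with a 95% counting interval of 0.118 to 0.431. Its log2 fold change of -2.06 ± 0.44 was -1.68 with a larger prior count of 2. The related Pdzrn3 had 10, 3 and 18 counts in the null-labelled libraries and 6, 12 and 28 in wild type, and its groups overlapped (log2 fold change -1.08 ± 0.75; edgeR adjusted p = 0.9996). Lnx2, a ubiquitin ligase of the same kind that binds the cell fate protein Numb, was the most abundant of the list, with 86.5 ± 24.7 CPM in the null-labelled and 82.9 ± 29.2 CPM in the wild type libraries. In this list of 6 other genes, 5 could be tested, with 0 called by edgeR or DESeq2 and 0 at an unadjusted p under 0.05, and a median log2 fold change of 0.06.

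Mobp (ENSMUSG00000032517, chromosome 9, 120149707 to 120181484) had 26, 22 and 24 counts in null-labelled libraries 1, 2 and 3, against 55, 45 and 30 counts in wild type 1, 2 and 3. The corresponding levels were 1.19, 1.08 and 0.896 CPM in the null-labelled libraries and 2.65, 2.62 and 2.03 CPM in wild type. Both groups were tight, with coefficients of variation of 14.2% in the null-labelled and 14.5% in the wild type libraries, no more than counting error gives. The mean was 1.06 ± 0.150 CPM in the null-labelled and 2.43 ± 0.354 CPM in the wild type libraries, a log2 fold change of -1.21 ± 0.27. Of its exon bases 1.15% overlap Gm38642 on the same strand, not analysed here.

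No other myelin gene was called between the genotypes. Of 13, 6 could be tested, edgeR and DESeq2 called 0, and 0 were under an unadjusted p of 0.05, with a median log2 fold change of 0.02. Mal, a proteolipid of myelin and of epithelial apical membranes, was the most abundant at 5290 ± 727 CPM in the null-labelled and 5280 ± 231 CPM in the wild type libraries. Opalin and Ermn, which mark oligodendrocytes, had 0 counts in every library, and Mag and Mog at most 1.

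Across the 8 genes, the nearest tested gene on each side that was not itself a member was compared in the same way. 5830444B04Rik, the tested gene nearest to Gabrd, was left out for that reason. There were 13 such genes, none tested beyond Samd11 on its far side. Their log2 fold changes lay between -0.37 and 0.15, the groups overlapped in all 13, and edgeR called 0, with 0 at an unadjusted p under 0.05 and 0 called by DESeq2. Over all tested genes the shares were 3.73% without overlap and 1.18% at an unadjusted p under 0.05, so a count of 0 among 13 is near the background and not a result about these genes. Cfap74, with too few counts to test, is closer to Gabrd and 5830444B04Rik than any of the 13 on that side, and had 0 counts in the null-labelled libraries as given above. Some of them are far from their member. For Npy the neighbours Fam221a and Mpp6, 432 and 281 kb away, had log2 fold changes of -0.14 ± 0.33 and 0.12 ± 0.26. Around Mobp, Eif1b at 311 kb had a log2 fold change of -0.05 ± 0.23 and Rpsa at 17.3 kb -0.07 ± 0.18. Rpsa is a ribosomal protein gene with near-identical copies elsewhere that could share its reads. Around Pdzrn4, Lrrk2 at 581 kb, a kinase gene with few counts, had a log2 fold change of -0.37 ± 0.47. Gxylt1, at 468 kb from Pdzrn4, had 0.06 ± 0.15.

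**Figure D3:**
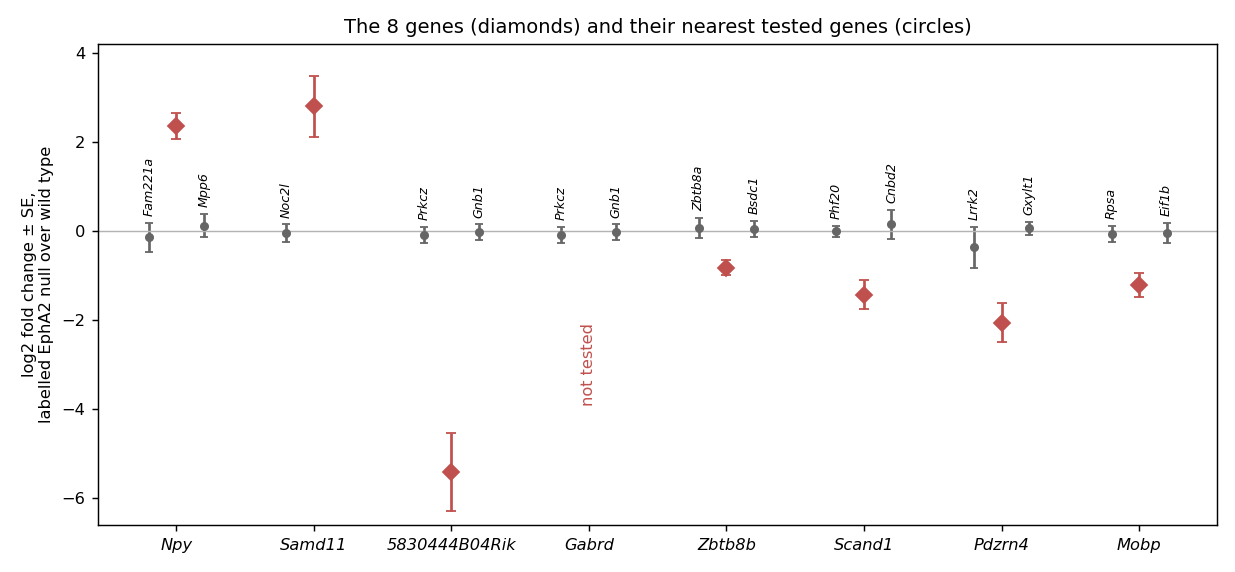
Log2 fold change ± SE, null-labelled over wild type, from edgeR for the 8 genes (red diamonds, Gabrd not tested) and for the nearest tested genes to the left and right that are not themselves among the 8 (grey circles). These neighbours lie between -0.37 and 0.15, while the members lie between -5.41 and 2.80.

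Of the 8 genes, 4 are on chromosome 4, which also holds Epha2. Zbtb8b is 11.9 Mb from Epha2 on 1 side, and Gabrd and 5830444B04Rik, both at 14.1 Mb, and Samd11, at 14.9 Mb, are on the other. Chromosome 4 held 6.46% of the tested genes and 8.98% (43 of 479) of those whose groups did not overlap, and no test of position was made. Npy, Scand1, Pdzrn4 and Mobp are on 4 different chromosomes.

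The title numbers gave a comparison that was not used to choose the genes. With genotype in the model, edgeR called 44.7% of all tested genes between higher and lower title numbers, 24.6% higher and 20.1% lower. These were 5740 genes, but 1103 without null-labelled library 1, 3549 without wild type 2 and 3702 without wild type 3. Of the 7 tested members 0 were called, 0 had an unadjusted p under 0.05, and DESeq2, which called 43.4% of genes, called 0 of the 6 it tested. The genes were chosen for groups that do not overlap by genotype, and each genotype holds both title ranges, so a large title number effect was unlikely to be found among them. The log2 fold change, higher over lower title numbers, was 1.06 ± 0.61 (edgeR adjusted p = 0.187) for 5830444B04Rik and -0.33 ± 0.27 (adjusted p = 0.339) for Mobp. In Npy (-0.03 ± 0.29), Samd11 (0.04 ± 0.64), Zbtb8b (-0.03 ± 0.14), Scand1 (0.05 ± 0.31) and Pdzrn4 (-0.15 ± 0.50) this log2 fold change was closer to 0. In the lists around the members 41 of 102 tested genes were called by title number, where edgeR called 44.7% of all tested genes. Among them were 11 of 22 genes of the Polycomb list, all higher, and 20 of 40 of the BTB list, 15 higher and 5 lower. The lower ones include Zbtb8os. Counted in either direction these are near the share over all genes. No list was tested as a set, and nothing about the lists is read from the counts.

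**Figure D4:**
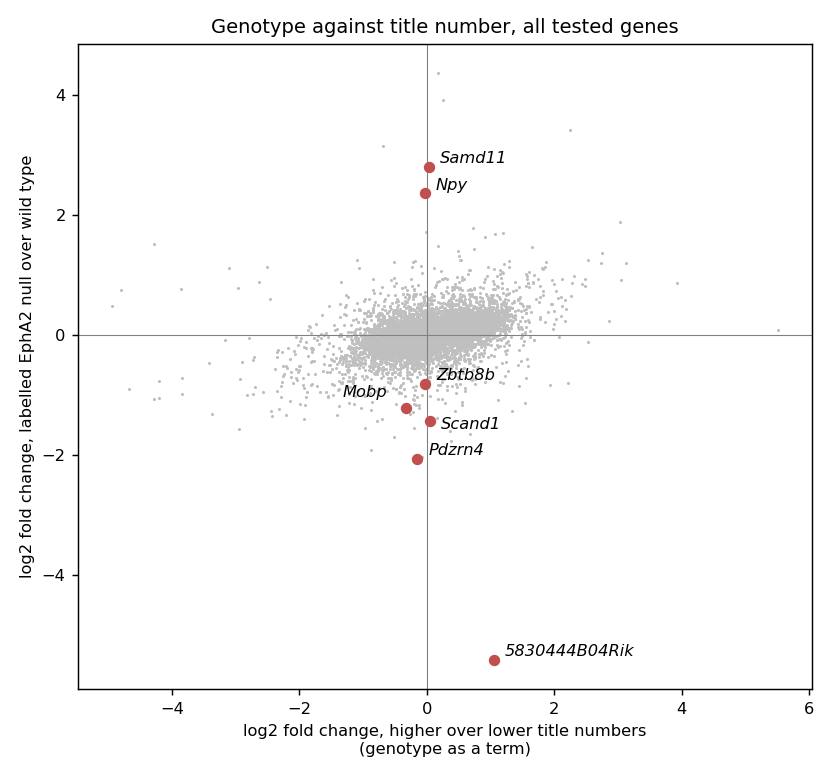
Each point is 1 tested gene, with the log2 fold change of higher over lower title numbers on the x axis and of null-labelled over wild type libraries on the y axis; 7 of the 8 genes are in red and Gabrd was not tested. The red points spread along the y axis from -5.41 to 2.80 and lie near 0 on the x axis, apart from 5830444B04Rik at 1.06.

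Within each title range the sign of the genotype difference is fixed by the choice of genes whose groups do not overlap, and only its size is described here. On the scale of group means, the log2 ratio for Npy was 2.34 among lower and 2.43 among higher title numbers. For Samd11 this log2 ratio was 2.06 among lower and 4.13 among higher title numbers, where the lower range holds wild type 2. In the same order, the log2 ratio was -0.77 and -0.85 in Zbtb8b, -1.24 and -1.65 in Scand1, -2.37 and -1.74 in Pdzrn4, and -1.15 and -1.03 in Mobp. For 5830444B04Rik it was -4.55 and -6.63, sizes that rest on 2 counts summed over the null-labelled libraries. Gabrd, at 0 counts in those libraries, has no such ratio. The interaction of genotype with title range was not called for any of the 7 (edgeR adjusted p = 0.999 for each; 0 at an unadjusted p under 0.05; 0 by DESeq2), and over all genes edgeR called 0 (0%) and DESeq2 0.0545%. With 1 or 2 libraries in each cell such a test has little reach, and its estimate was 1.99 ± 1.34 for Samd11 and -2.12 ± 2.41 for 5830444B04Rik.

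Genes whose levels ran most closely with each member over the 6 libraries were found by Pearson's r of log2 CPM among 11992 genes that averaged 1 CPM or more. The values describe 6 libraries that share their normalisation. Genes with a strongly negative r were also found for every member, and for most members in similar number. The genes named are the highest of a large search and are not read as partners of the members. Highest for Npy were Scamp1, a vesicle membrane protein gene (r = 0.987), and Padi1 (r = 0.971), which itself had 31.8 ± 4.45 CPM in the null-labelled and 2.08 ± 0.420 CPM in the wild type libraries. Samd11 ran with Gyg, the glycogenin gene (r = 0.995), whose difference was small, at 668 ± 9.63 CPM in the null-labelled and 620 ± 19.5 CPM in the wild type libraries, and with Trappc6b (r = 0.970). Both Gabrd (r = 0.992) and 5830444B04Rik (r = 0.989) had Paxbp1 first, followed by Rsph3b (r = 0.971) for Gabrd and Slc12a5 (r = 0.975) for 5830444B04Rik. Slc12a5, the neuronal chloride exporter KCC2, had 38, 28 and 34 counts in the null-labelled libraries and 52, 53 and 48 in wild type.

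For Pdzrn4 the closest were Hcls1, a gene of blood cells (r = 0.995), and Aff3 (r = 0.987). Hcls1 had 41, 45 and 50 counts in the null-labelled libraries and 65, 77 and 50 in wild type. Leukocyte markers (9 genes, all detected) summed to 21, 5.17 and 3.32 CPM in null-labelled libraries 1, 2 and 3. In wild type 1, 2 and 3 they summed to 27.0, 18.1 and 6.08 CPM, so within each genotype they were higher at lower title numbers. Pdzrn4 had 0.183, 0.295 and 0.149 CPM in null-labelled libraries 1, 2 and 3, and 0.675, 1.22 and 0.743 CPM in wild type. The part of leukocytes in the Pdzrn4 difference was not tested. Zbtb8b ran with Poldip3 (r = 0.979) and the collagen hydroxylase gene P4ha2 (r = 0.977), Scand1 with Cyren (r = 0.984) and Ptpru (r = 0.969), and Mobp with Pde6d (r = 0.991) and 2500002B13Rik (r = 0.984). Every gene named here other than Padi1 had an adjusted p of 0.9996 between genotypes in edgeR. The groups of all of them did not overlap. A high r with members chosen for that trait makes this likely, so nothing is read from it.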

How the data were processed

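RNA from 6 corneal epithelium samples was measured as counts per gene. The authors deposited 1 table of raw counts, whole numbers per Ensembl gene identifier; the sources used here do not give the aligner, counting program, strand setting or genome build. Symbols, positions and exon lengths came from GENCODE M21 (GRCm38), which held 24942 of the 25006 identifiers; 6617 genes had 0 counts throughout. Columns were matched to samples by title. Totals ran from 15308013 to 27586942, and no pair of libraries agreed within sampling noise (lowest chi-square over its degrees of freedom, 11.2).

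Counts were TMM-normalised, filtered with filterByExpr (12847 genes) and compared with edgeR 4.0.16 (glmQLFit, glmQLFTest; R 4.3.3) with Benjamini-Hochberg adjustment over all genes and calls under 0.05. Genotype was fitted alone, title number range with genotype as a term, and their interaction with both. DESeq2 1.42.0 and limma voom (3.58.1) were alternatives. The SE is the log2 fold change divided by the square root of F. Ratios of summed counts carry exact 95% intervals. The edgeR fit was first tested on simulated data.

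Besides the 8 members, the named genes are, for each of 7 pathway lists, the most abundant gene and the one with the smallest p, then the nearest tested gene on each side, and the 2 genes with the highest r; a few that this rule names are not reported here. Marker lists were those of corneal epithelium, nerve and Schwann cell, retina, leukocyte, stroma, melanocyte and lens. Genes given as silent or near 0, overlapping genes, Cfap74, Tmem52 and Npy4r were chosen with their values known. The members and lists were chosen with earlier results of these data known.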

Additional observations from a re-analysis of the deposited data

How the results depend on the processing

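The sign of the genotype difference in the 8 genes is fixed by the choice of genes whose groups do not overlap, so only its size is given. For Npy the log2 fold change ran from 2.22 to 2.54, for Mobp from -1.33 to -1.09, for Scand1 from -1.70 to -1.21 and for Zbtb8b from -0.90 to -0.71. Samd11 ran from 2.31 to 4.33, the highest without wild type 2. 5830444B04Rik ran from -5.82 to -3.64 and Pdzrn4 from -2.37 to -1.68, both smallest in size with a prior count of 2, and Gabrd had too few counts to be tested. The number of genes called between genotypes was 1 with edgeR, 6 with DESeq2 and 0 after summing samples with 1 title number, and 1 without each library in turn. Between title numbers it was 5740, and from 1103 (without null-labelled library 1) to 5803 with 1 library left out; it was 3549 without wild type 2 and 3702 without wild type 3. The interaction count was 0 with edgeR, 7 with DESeq2 and 128 with no filter on low counts. The lists and the nearest genes kept 0 calls under every alternative run. The cause of these shifts was not tested.

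The title number differences of the members, none called, changed sign in places. Without the genotype term Npy had 0.66, Scand1 -0.36 and 5830444B04Rik 0.00; without normalisation factors Samd11 had -0.09 and Scand1 -0.07, and with DESeq2 Samd11 had -0.40. With 1 library left out, Npy ran from -0.18 to 0.09, Samd11 ran from -1.45 to 0.56, 5830444B04Rik ran from -0.94 to 1.71, Zbtb8b ran from -0.13 to 0.06, Scand1 ran from -0.20 to 0.27, Pdzrn4 ran from -0.34 to 0.21 and Mobp ran from -0.39 to -0.29. No paired analysis was possible because the labels give the groups no shared replicate numbers; a fit with title number range as a term, which pairs no samples, gave 1 call between genotypes with edgeR. Alternatives for the nearest genes and for the Gabrd bound were added after seeing the data.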

Other observations

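Few genes had 0 counts throughout 1 group and at least 3 in each library of the other. Over all 25006 genes, 2 had 0 counts in the 3 null-labelled libraries and at least 3 in each wild type library: Gabrd and Lrit1, a gene known from the retina, with 3 counts in each wild type library. In the other direction there was 1, Abcc2, an organic anion exporter gene, with 3, 3 and 5 counts in null-labelled libraries 1, 2 and 3 and 0 in wild type. Of the 12082 genes with at least 50 counts summed over wild type, only 5830444B04Rik had no more than 2 in the null-labelled libraries. The same count in the other direction was not made. Because Gabrd and 5830444B04Rik were chosen by their counts in this contrast, nothing is read from their place in these searches.

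Further along chromosome 4, the pseudogene Vmn2r-ps159, 84.0 kb from Samd11 by midpoint, had 0 counts in all null-labelled libraries and 2, 5 and 4 in wild type 1, 2 and 3. It was at least 4.79-fold lower with up to 3 counts allowed over the null-labelled group, and the 95% counting interval of the ratio reached up to 0.305. Plekhn1, Perm1 and Isg15, on the other side of Samd11, had log2 fold changes of 0.11, -0.07 and 0.07 (edgeR adjusted p = 0.9996 for each).

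In the pathway lists around the members, 4 of 102 tested genes, or 3.92%, had groups that did not overlap: Pam, Pcgf6, Peg3 and Zscan2. Over all tested genes the share was 3.73%.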
